A study of Mus musculus with 4 samples.

Results

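The miR-15/16 family was followed through lactogenic differentiation of HC11 cells, a stem-like epithelial line established from mouse mammary gland. Its members were taken as the array probes named exactly mmu-miR-15a, mmu-miR-15b, mmu-miR-16, mmu-miR-195 or mmu-miR-497 (written here without the species prefix), without miR-322 and without star strands, which gave 5 of the 700 mouse miRNA probes on the array. Members of this family share a seed, the stretch near the 5′ end of a miRNA that pairs with its target messages. In mammals they come from 3 gene clusters, and they are known for holding back the cell cycle by repressing G1 cyclins and for repressing the survival factor BCL2. Loss of the miR-15a and miR-16-1 cluster is known from human chronic lymphocytic leukaemia, and miR-195 from arrest of heart muscle cells in the mouse.

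Each stage had 2 samples. Proliferating cells, called stem cell-like in the labels, were grown in medium with 10% serum, insulin and epidermal growth factor and were collected after 48 h. Differentiated cells were kept for 48 h at 2% serum with epidermal growth factor withdrawn, and then received 100 nM dexamethasone together with 1 µg/mL ovine prolactin for 72 h. Both stages came from the same line, and no genotype or transgene separates them. Of each pair with the same replicate number, 1 sample carried the dye Cy3 and the other Cy5, and the dyes were exchanged between the 2 pairs, so each replicate number was taken as 1 array. The dyes are those of the samples' label field; the labelling protocol names Cy3 for every sample, while the series' design describes dye-swapped 2-colour arrays. Whether the pair of samples in a stage came from separate cultures is not in the labels, and the spread behind each p-value may therefore be technical. Precision is limited by the number of arrays, 2.

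The 5 target sequences on the array were each identical to a mature RefSeq miRNA of GRCm38.p6. They are shown because the targets share their seed and differ mainly further along. The capitals mark the seed, bases 2 to 8 from the 5′ end.
miR-15a: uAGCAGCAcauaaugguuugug
miR-15b: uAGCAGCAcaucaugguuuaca
miR-16: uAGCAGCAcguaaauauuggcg
miR-195: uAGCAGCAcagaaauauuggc
miR-497: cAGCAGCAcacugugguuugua

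All 5 members carry the seed AGCAGCA. Counted from 1 at the 5′ end, miR-15b differs from miR-15a by 4 substitutions, A12C, G20A, U21C and G22A. miR-195 differs from miR-16 by G10A and U11G and is 1 base shorter, the closest pair of the family with 3 edits. miR-497 lies 9 edits from miR-195, its cluster partner, and 5 edits from miR-15a. A probe of a near-identical partner can take up some of its signal, so the pairs miR-16 with miR-195 and miR-15a with miR-15b are uncertain to that extent.

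The clusters are compact. The mature miR-15a lies at chr14:61632075-61632096 on the minus strand and the copy of miR-16 from Mir16-1 at chr14:61631936-61631957, with 139 bases between their starts, both within the bounds of Dleu2, a long non-coding RNA gene. miR-15b lies at chr3:69009775-69009796 on the plus strand and the copy of miR-16 from Mir16-2 at chr3:69009918-69009939, 143 bases on, both within Smc4, a gene of the condensin complex. miR-497 lies at chr11:70234730-70234751 on the plus strand, within the bounds of Mir497b as well, and miR-195 at chr11:70235062-70235082, 332 bases on. Mature miR-16 is identical from both of its genes, so 1 probe reads the sum and cannot tell the clusters apart.

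Each probe was printed in 5 spots, and signal is given as scanner intensity over the local background. A probe counted as detected in a sample where at least 3 of its spots exceeded a margin set by the empty spots. The samples were not alike before normalisation. Differentiated replicate 2 had the highest margin, 157 intensity units, against 7.75 to 53.7 in the other 3 samples, and before normalisation the median log2 ratio, differentiated over proliferating, was -0.19 on array 1 and 1.34 on array 2. Between 138 and 203 of the 700 probes were detected per sample, and the test took the 172 that both samples of either stage detected. Of the marker lists, the epithelial one had 4 to 5 of its 6 miRNAs detected per sample, with miR-141 undetected throughout, and the endothelial one had 0 of 2. The blood list had at most 1 of 6, the muscle list at most 1 of 4 and the neuron or liver list 1 to 2 of 4. Beside the family, 3 of the 5 tested epithelial miRNAs rose (miR-200a 3.65, miR-200b 2.67 and miR-429 1.43 in log2 ratio), beside 16.9% of all tested probes. The other tested ones, miR-200c (0.75, limma adjusted p = 0.146) and miR-205 (0.2, adjusted p = 0.609), were not called. Centred on the spike control probes, all 5 were called higher, beside 138 of the 172 tested probes. The summed normalised intensity of the epithelial list was 6915 to 8768 in the proliferating and 20938 to 22672 in the differentiated samples. Of the muscle list miR-206 fell (-1.02; limma adjusted p = 0.0483), with miR-1, miR-133a and miR-133b undetected in every sample; with spike centring miR-206 was at 0.38 and not called. miR-206 was undetected in differentiated replicate 2 and entered the test through the proliferating samples. The part of these marker shifts in the family's values was not tested.

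miR-16, miR-15b, miR-15a and miR-195 were detected in all 4 samples, and miR-497 in 1. miR-195 rose 3.70-fold in the differentiated cells and miR-15b fell, being 2.83-fold lower. miR-15a and miR-16 did not pass the test. The calls thus went in both directions, with 1 member higher and 1 lower among the 4 tested; with spike centring the 3 called, miR-15a, miR-16 and miR-195, were all higher, and on the median of all 700 probes the 2 called, miR-15a and miR-195, were too. Over all tested probes limma called 30.2%, with 16.9% higher and 13.4% lower. With spike centring it called 138 of the 172 higher and 8 lower. On the median of all 700 probes it called 47 higher and 13 lower. These are levels in RNA from whole cultures, in which fewer cells making a miRNA and less of it per cell cannot be told apart.

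**Figure D1:**
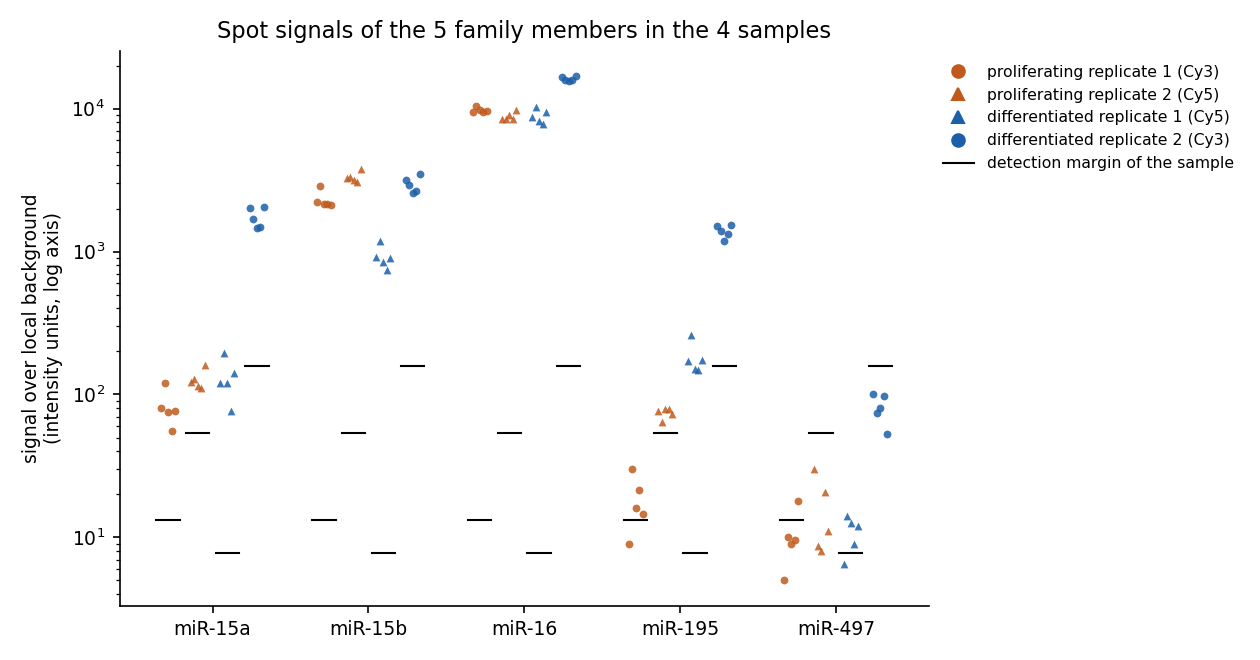
Signal over local background (intensity units, log axis) of the 5 spots of each member in each sample, with circles for Cy3, triangles for Cy5 and a bar at each sample's detection margin; values under 5 are drawn at 5. miR-16 lies far above the margin in every sample, miR-195 just above it in the proliferating samples, and miR-497 near or under it.

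miR-15b, the member of the cluster within Smc4, was read strongly. Its signal was 2305 ± 330.3 (SD, n = 5 spots) in proliferating replicate 1 and 3316 ± 271.6 in proliferating replicate 2. In the differentiated cells it was 918.2 ± 165.5 in replicate 1 and 2956 ± 363.7 in replicate 2. Before normalisation the stages therefore overlapped, the second differentiated sample lying between both proliferating ones. After normalisation they did not, with log2 intensities of 11.66 and 12.00 in the proliferating samples and 10.24 and 10.42 in the differentiated ones. The log2 ratio, differentiated over proliferating, was -1.42 on array 1 and -1.58 on array 2, a mean of -1.50 ± 0.12 (SD, n = 2 arrays; 95% interval -2.07 to -0.93; limma adjusted p = 0.0197). The direction is relative to the bulk of the miRNA probes: centred on the spike control probes the value was -0.10 (adjusted p = 0.761), and centred on the median of all 700 probes it was -0.84 (adjusted p = 0.175).

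miR-195, of the cluster with miR-497, moved the other way. Its signal was 18.3 ± 8.0 (SD, n = 5 spots) in proliferating replicate 1 and 74.5 ± 6.2 in proliferating replicate 2, which is 1.38 and 1.39 times the detection margins of those samples. In the differentiated cells it was 180.9 ± 45.3 in replicate 1 and 1390 ± 139.8 in replicate 2. Both differentiated samples stood above both proliferating ones before and after normalisation, although the differentiated pair differed widely in scanner units. The normalised log2 intensities were 6.80 and 7.37 in the proliferating samples and 8.63 and 9.31 in the differentiated ones. The log2 ratio was 1.83 on array 1 and 1.94 on array 2, with a mean of 1.89 ± 0.08 (SD, n = 2 arrays; 95% interval 1.32 to 2.45; limma adjusted p = 0.0141). With spike centring it was 3.29. The offset of 50 units added in the background correction pulls the ratio of so dim a probe towards 0, and with an offset of 16 it was 2.31. With plain subtraction and no offset it was 3.17 (adjusted p = 0.00301).

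Mesenchymal marker miRNAs are given beside miR-195. In the list of 6, from 1 to 3 were detected per sample, and miR-143 rose (log2 ratio 0.90 ± 0.04, n = 2 arrays; limma adjusted p = 0.0474), while miR-145 had 0.98 ± 0.30 (adjusted p = 0.0564) and miR-140 0.17 ± 1.00 (adjusted p = 0.792). miR-143 and miR-145 were detected in the differentiated samples alone, so they entered the test through the stage where they were higher. miR-199a-3p, miR-199a-5p and miR-214 were undetected in every sample. With spike centring the 3 tested mesenchymal miRNAs were all called higher, beside 138 of the 172 tested probes. The summed normalised intensity of the list, offset included, was 1439 and 1380 in the proliferating samples and 1272 and 2346 in the differentiated ones. The part of such cells in the miR-195 value was not tested.

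**Figure D2:**
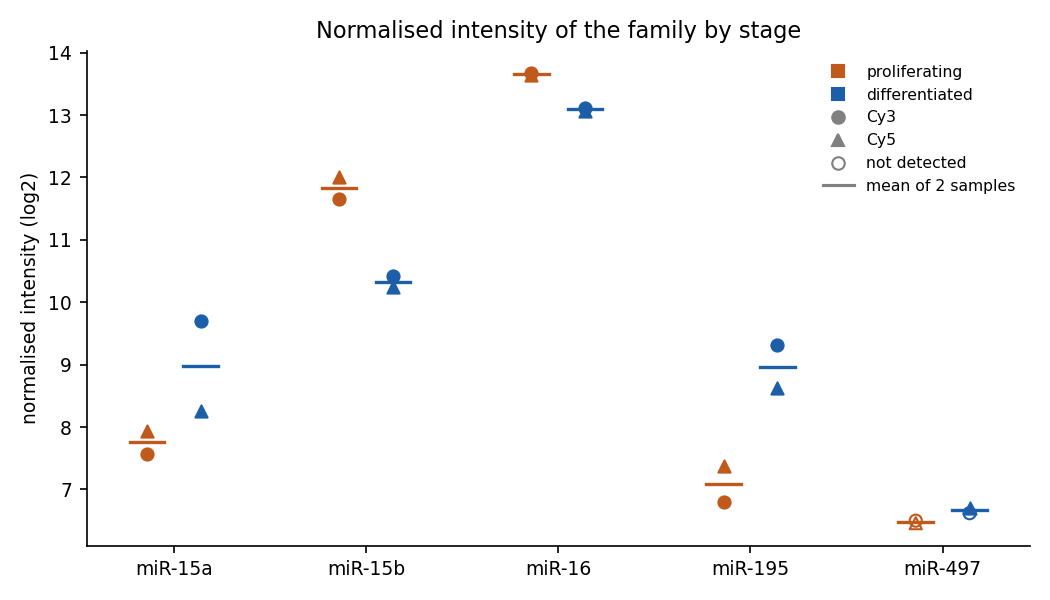
Normalised intensity (log2) of each member in the proliferating (orange) and differentiated (blue) samples, with circles for Cy3, triangles for Cy5, open symbols where the probe was not detected and lines at the mean of 2 samples. miR-15b lies lower and miR-195 higher in both differentiated samples, and the differentiated samples of miR-15a lie apart at 8.25 and 9.70.

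miR-15a, the Dleu2 member, was the least repeatable of the family. Its signal was 81.9 ± 23.7 (SD, n = 5 spots) and 127.3 ± 19.6 in proliferating replicates 1 and 2. In the differentiated cells it was 130.9 ± 43.1 in replicate 1 and 1738 ± 277.0 in replicate 2. One differentiated sample was thus close to the proliferating ones in scanner units and the other far above them. Normalised log2 intensities were 7.57 and 7.94 in the proliferating samples and 8.25 and 9.70 in the differentiated ones, which did not overlap. The log2 ratio was 0.68 on array 1 and 1.76 on array 2, with a mean of 1.22 ± 0.76 (SD, n = 2 arrays; 95% interval 0.11 to 2.33), and it missed the threshold (limma adjusted p = 0.0963). The gap of 1.08 between the arrays compares with a median gap of 0.42, and 11 of the 172 tested probes, miR-15a included, had one at least as large. Because the dyes were exchanged, such a gap holds any dye effect of the probe and any difference between replicates, which cannot be told apart. The ratio was above 0 in each of 14 alternatives that kept all samples, and it passed the threshold in 9 of them, with adjusted p-values from 7.12e-14 to 0.359. Several of the passing fits gave the 4 tested members 1 common standard error, so their p-values do not reflect the spread of miR-15a itself. Without differentiated replicate 2 the ratio was 0.50, and without differentiated replicate 1 it was 1.94.

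miR-16, the product of both the Dleu2 and the Smc4 cluster, was read at 9746 ± 381.4 (SD, n = 5 spots) in proliferating replicate 1 and 8850 ± 590.7 in replicate 2. The differentiated cells had 8889 ± 982.6 in replicate 1 and 16220 ± 493.0 in replicate 2. With background included, the brightest spot of the family read 17135 units. This was well under the brightest spots of the 4 samples, which lay between 49854 and 62582 on the same scale. The normalised log2 intensities of miR-16 were 13.67 and 13.64 against 13.07 and 13.12, close within each stage and not overlapping between stages. Its log2 ratio was -0.61 on array 1 and -0.53 on array 2, with a mean of -0.57 ± 0.06 (SD, n = 2 arrays; 95% interval -1.12 to -0.01; limma adjusted p = 0.108). The sign rests on the centring: the ratio was 0.83 with spike centring (adjusted p = 0.0101) and 0.25 with the median of all 700 probes (adjusted p = 0.689), while quantile normalisation gave -0.90 (adjusted p = 0.00124).

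miR-497 was at the limit of detection. Its signal was 8.1 ± 8.5 (SD, n = 5 spots) and 15.7 ± 9.5 in proliferating replicates 1 and 2, where 1 and 0 of 5 spots passed the margin. In differentiated replicate 1 it was 10.8 ± 3.0, with 4 of 5 spots above that sample's low margin of 7.75, and in differentiated replicate 2 it was 81.1 ± 19.2, with 0 of 5 above a margin of 157. It was not tested. Its log2 ratio of 0.18 ± 0.04 (n = 2 arrays) lies between values held near 0 by the offset, and gives no fold change. A change in miR-497 was not detectable at this signal, so its cluster can be followed through miR-195 alone.

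**Figure D3:**
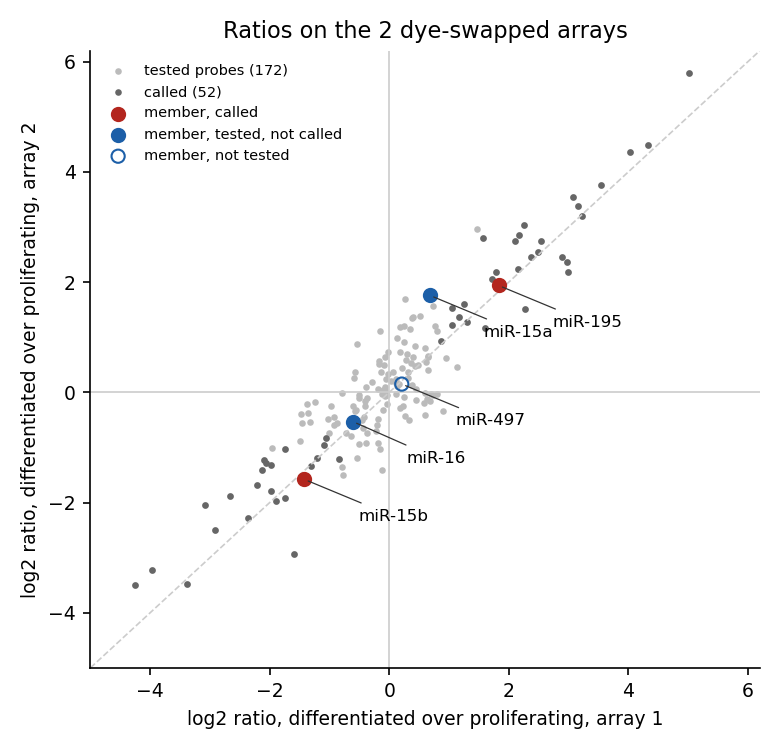
Log2 ratio (differentiated over proliferating) on array 1 (horizontal) and array 2 (vertical) for the 172 tested probes in grey, the 52 called ones in dark grey and the family in colour; the dashed line marks equal ratios. miR-15b, miR-16 and miR-195 lie close to the line, and miR-15a lies above it at 0.68 and 1.76.

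A shift common to all probes of an array cancels in the differences between members. A correction that varies with brightness, as in the normalisation used here, does not. The log2 ratio of miR-195 exceeded that of miR-15b by 3.25 on array 1 and 3.52 on array 2, a mean of 3.39 ± 0.19 (SD, n = 2 arrays), or a 10.5-fold difference between their fold changes. The same difference was 3.02 to 4.68 over 10 other settings. miR-15a exceeded miR-15b, its counterpart in the other cluster, by 2.10 and 3.34 (mean 2.72 ± 0.88). miR-16 exceeded miR-15b by 0.81 and 1.06 (mean 0.93 ± 0.17), and over the same settings by 0.75 to 1.32. These differences are given as values and were not tested.

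The cluster partners read by their own probes can be set side by side. In the Smc4 cluster miR-15b was at -1.50 and miR-16, which also holds the Dleu2 copy, at -0.57. In the Dleu2 cluster miR-15a was at 1.22. miR-195 exceeded miR-16, whose sequence is the closest to its own, by 2.44 on array 1 and 2.47 on array 2 (mean 2.45 ± 0.02), a pair added after seeing the data. The spread of this difference depended on the setting. It was 3.65 ± 1.01 with plain subtraction, 2.01 ± 0.62 with median centring and 2.54 ± 0.04 with quantile normalisation. How much signal passes between near-identical probes was not tested.

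Normalisation bore on the 4 tested members unequally on array 1 and almost equally on array 2. On array 2 the loess step, which removes a trend of the ratio with brightness, took 1.43 off the log2 ratio of miR-15a, 1.43 off miR-15b, 1.40 off miR-16 and 1.38 off miR-195, and 0.87 off the dim miR-497. On array 1 it raised the ratios of miR-15a and miR-195 by 0.40 each and took 0.13 off miR-15b and 0.46 off miR-16. The unnormalised ratio of miR-15b was thus -1.29 on array 1 and -0.15 on array 2, and that of miR-195 was 1.43 and 3.33. The order of the tested members, with miR-15b lowest, then miR-16, then miR-15a and miR-195 highest, was the same on both arrays before and after this step.

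The authors' deposited value table gives processed intensities of the same samples on a scale that is not stated. There miR-15b read 3443 and 4921 in the proliferating samples and 1170 and 1072 in the differentiated ones. miR-195 read 38.6 and 106 against 282 and 443, miR-15a 116 and 173 against 181 and 621, and miR-16 13428 and 12219 against 8751 and 8686. In these 4 the stages did not overlap, and neither did they in miR-497, which was detected in 1 sample. With 2 samples per stage an exact test cannot give a p-value under 0.333, and the share of all probes that separate was not counted. The separation is therefore not read as a result about the members. A fit to that table gave log2 ratios of -1.88 ± 0.45 for miR-15b (limma adjusted p = 3.91e-06), 2.46 ± 0.57 for miR-195 (adjusted p = 2.34e-09), 1.25 ± 0.85 for miR-15a (adjusted p = 0.00216) and -0.56 ± 0.09 for miR-16 (adjusted p = 0.196; SD, n = 2 arrays). That fit gave the 4 tested members the same standard error, 0.37, so these p-values do not reflect each member's own spread. miR-497 read 19.2 and 24.4 against 44.9 and 24.6 and remained without a test.

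**Figure D4:**
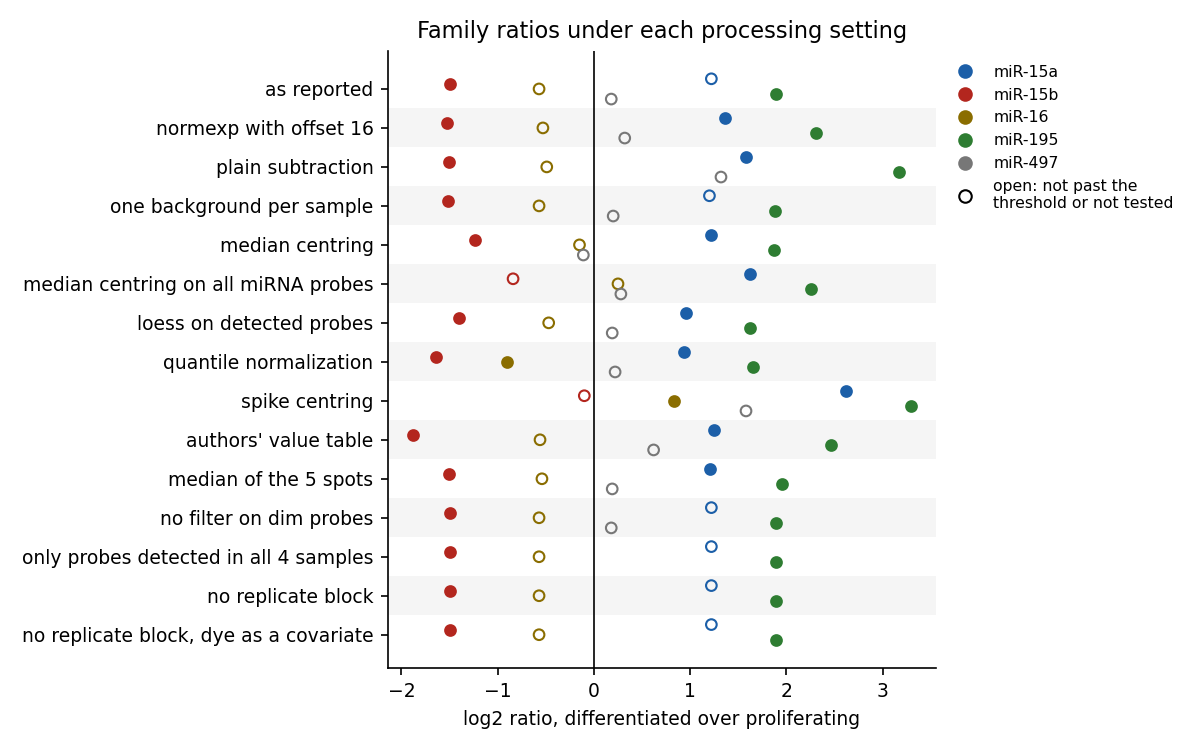
Log2 ratio (differentiated over proliferating) of each member (horizontal) under the reported processing and each alternative (rows), filled where the limma adjusted p was under 0.05 and open otherwise. miR-195 is filled throughout at 1.62 to 3.29, miR-15b spans -1.88 to -0.10, and miR-16 crosses 0.

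Other miRNAs with the same seed were found by sequence among the 700 probes. There were 2, miR-322 and miR-1907. miR-322 had a log2 ratio of 0.95 ± 0.62 (limma adjusted p = 0.113), and miR-1907, detected in 4 samples, had -0.08 ± 0.49 (adjusted p = 0.837). miR-322 was detected in the 2 differentiated samples alone, so it entered the test through the stage where it was higher. miR-503, which shares a cluster with miR-322, was detected in no sample. The star strands miR-15a*, miR-15b* and miR-16* were on the array and were detected in no sample.

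By distance over both arrays' log2 ratios, the tested probes nearest to miR-15b were miR-805 (-1.31 and -1.35, distance 0.26) and miR-130a (-1.20 and -1.18, distance 0.45). Nearest to miR-195 were miR-2137 (1.72 and 2.05, distance 0.16) and miR-2141 (1.79 and 2.19, distance 0.25). miR-15a lay closest to miR-30e (0.74 and 1.57, distance 0.20) and miR-322 (0.51 and 1.39, distance 0.41), and miR-16 to miR-24-2* (-0.46 and -0.51, distance 0.14) and miR-331-3p (-0.57 and -0.33, distance 0.19). With 2 arrays this likeness describes size and sign alone.

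The family was read against other miRNAs linked to the step from G1 to S phase. Of 12 tested miRNAs linked to its restraint, 3 rose and 0 fell, with a median log2 ratio of 0.40 beside 0.11 over all tested probes, of which 16.9% rose. These were let-7g (1.38 ± 0.30; limma adjusted p = 0.03), miR-26a (1.89 ± 0.53; adjusted p = 0.0278) and miR-26b (2.68 ± 0.43; adjusted p = 0.0136). Of 11 tested miRNAs linked to its promotion, those of the miR-17 cluster and its paralogs with miR-221 and miR-222, all 11 fell, with a median of -2.28, beside 13.4% of all tested probes. Of these, miR-18a and miR-106a were detected in the proliferating samples alone, so they entered the test through the stage where they were higher. In the first list miR-322, which was not called, was likewise detected in the differentiated samples alone. Both lists were chosen with earlier results of these data known. The values of miR-15b (-1.50) and miR-16 (-0.57) lay between the medians of both lists, and those of miR-15a (1.22) and miR-195 (1.89) above both. With spike centring the median of all tested probes moved from 0.11 to 1.51, all 12 of the first list were then called higher (median 1.80) and 6 of 11 of the second lower (median -0.88), so the counts are relative to that bulk.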

How the data were processed

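Total RNA was cut down to small RNAs under 300 nt, tailed and tagged for dye staining, per the labels' protocols; these name Cy3 throughout, and Cy5 for 2 samples comes from the label field. The deposited scanner tables hold the mean intensity of each of 3968 spots, with background and without normalization, per the file headers and the values. No scanner, image software or genome build is named in the labels or headers. The authors also deposited processed intensity per probe, with medians of 13.6 to 15.1; its scale and centring stay unknown, and each column correlated best with its own sample (r of 0.985 to 0.997 over tested probes).

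Local background was the 20th percentile of spots within 7 rows and columns, and the detection margin the mean of empty spots over it plus 3 SD. limma 3.58.1 under R 4.3.3 was used for normexp (offset 50), loess (span 0.3, control spots at weight 0), averaging of 5 spots, lmFit and eBayes on 1 ratio per array, two-sided, with Benjamini-Hochberg adjustment over 172 probes with calls at 0.05. Residual degrees of freedom were 1, the prior ones 2.08, and the procedure was tested on simulated data. Log2 intensities per sample are after loess and Aquantile. The pairing by array comes from the series' design text; deviations of same-numbered samples from their stage means correlated at 0.343. The alternatives covered background, normalization, centring, filters, the array block, dye, the authors' table and left-out samples. All members are named, with the 2 probes nearest to each tested one; members and lists were chosen with earlier results of these data known. The genes around each miRNA are RefSeq's, of GRCm38.p6.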

Additional observations from a re-analysis of the deposited data

How the results depend on the processing

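miR-195 kept its direction and its call in the 14 alternatives and in each fit without 1 sample, and miR-15b in all of these but 2. Centring on the median of all 700 probes and the pair of miR-195 with miR-16 were added after seeing the data. The fit without the replicate block changed no call of a member (miR-15a 1.22, adjusted p = 0.0618). miR-15a passed with offset 16 (1.36), plain subtraction (1.58), median centring on detected probes (1.22) or on all probes (1.62), loess on detected probes (0.96), quantile normalization (0.94), spike centring (2.62), the authors' table (1.25) and the median of spots (1.21). miR-15b missed the threshold on all-probe centring (-0.84) and spike centring (-0.10). miR-16 turned to 0.25 and 0.83 in these, and passed with quantile normalization (-0.90). In the spike-centred fit each probe had the same standard error, 0.31, with no error for the spikes (15 probes, mean -1.40). Its calls therefore follow largely from the shift. The 4 tested members also shared 1 standard error with offset 16 (0.34), all-probe centring (0.48), loess on detected probes (0.26) and the authors' table (0.37). Adjusted p-values from these fits do not reflect each member's own spread. The untested miR-497 moved to 0.32, 1.32, -0.11, 0.28, 0.22, 1.58 and 0.62 with offset 16, subtraction, median centring, all-probe centring, quantile, spikes and the authors' table.

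Over all tested probes, 29 higher and 23 lower were counted. Offset 16 gave 46 and 43, subtraction 48 and 37, loess fitted to detected probes 49 and 45, quantile 50 and 58; the counts were 48 and 56 with the authors' table, 47 and 13 with all-probe centring and 138 and 8 with spikes. Probes detected in all 4 samples gave 18 higher, and no filter 13 lower, where the number tested differs. Members called were 4 with quantile (2 higher, 2 lower) and 2 or 3 otherwise.

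The difference of miR-195 and miR-15b was 3.84 with offset 16, 4.68 with subtraction, 3.10 with both median centrings, 3.02 with loess on detected probes and 4.34 with the authors' table. That of miR-195 and miR-16 was 2.83, 3.65, 2.01, 2.09 and 3.02 in the same order, with 2.54 for quantile and 2.49 for the median of spots. That of miR-497 and miR-195, which measures no fold because miR-497 was detected in 1 sample, was -1.98, -1.84, -1.98, -1.43 and -1.85, with -1.42 for quantile. miR-16 less miR-15b was 0.75 with quantile and 1.32 with the authors' table. The causes were not tested.

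Without each sample in turn, the lone sample being assumed to vary like the other stage, or without an array, miR-15a ranged from 0.50 to 1.94, miR-15b from -1.67 to -1.33, miR-16 from -0.61 to -0.53 and miR-195 from 1.55 to 2.23. The untested array values are among these.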
